A study of Mus musculus with 9 samples.

Results

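Expression of 9 endothelial junction and receptor genes was read in 3 kinds of mouse cell: those termed very small embryonic-like (VSEL), marrow cells sorted and labelled as blood-forming stem cells (HSC), and cultured embryonic stem cells (ESC). The 9 genes were Cldn5, Pecam1, Cdh5, Kdr, Tek, Tie1, Esam, Emcn and Vwf. Every probe set that the platform annotation assigned to 1 of these symbols alone was taken, which gave 9 of 18193 genes measured and 10 of the 45037 probe sets tested, with 2 for Cdh5 and 1 for each other gene. VSEL were sorted from bone marrow of C57BL/6 mice aged 4 weeks as Sca-1+ cells that lacked lineage markers and CD45. HSC came from the same kind of marrow through the same gates, but carried CD45. ESC were the ESC-D3 line, of strain 129S2/SvPas, kept on 0.1% gelatin with LIF at 10 ng/ml, and so stand for 1 cell line. Each group had 3 arrays, and each library was amplified from 20 sorted cells. Whether replicate libraries had different animals or dishes as their source is not labelled, so each p-value reflects library-to-library spread alone, and that spread may be technical.

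Endothelial cells line blood vessels and seal the vessel wall with tight and adherens junctions. Cldn5 encodes claudin-5, the main claudin of endothelial tight junctions, Cdh5 encodes VE-cadherin of the adherens junction, and Pecam1 (CD31) and Esam encode immunoglobulin-family adhesion molecules of the cell contacts. Kdr encodes VEGF receptor 2, Tek the angiopoietin receptor TIE2, and Tie1 a related receptor that acts with TIE2. Emcn encodes the sialomucin endomucin, and Vwf the adhesive glycoprotein von Willebrand factor, which megakaryocytes and platelets also make. Pecam1 and Esam are also carried by blood cells and blood stem cells, so these genes mark endothelium as a group and not 1 by 1.

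Promoter windows of 250 bases before to 50 bases after the gene start, from RefSeq on GRCm38.p6, were held for Cldn5, Kdr, Tek, Tie1 and Emcn. Pecam1, Cdh5, Esam and Vwf are named only. The windows of Cldn5, the member that differed most between VSEL libraries, and of the receptors Kdr and Tek are shown 5′ to 3′ on the gene's strand, with motif matches in capitals. They lie at chr16:18776597-18776896 on the plus strand for Cldn5, chr5:75978406-75978705 on the minus strand for Kdr and chr4:94739039-94739338 on the plus strand for Tek.
Cldn5: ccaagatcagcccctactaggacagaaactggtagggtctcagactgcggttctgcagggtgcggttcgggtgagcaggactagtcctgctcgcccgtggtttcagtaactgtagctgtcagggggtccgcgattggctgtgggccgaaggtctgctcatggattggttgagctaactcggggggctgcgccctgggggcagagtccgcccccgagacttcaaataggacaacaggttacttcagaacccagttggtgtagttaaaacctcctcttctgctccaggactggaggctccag
Kdr: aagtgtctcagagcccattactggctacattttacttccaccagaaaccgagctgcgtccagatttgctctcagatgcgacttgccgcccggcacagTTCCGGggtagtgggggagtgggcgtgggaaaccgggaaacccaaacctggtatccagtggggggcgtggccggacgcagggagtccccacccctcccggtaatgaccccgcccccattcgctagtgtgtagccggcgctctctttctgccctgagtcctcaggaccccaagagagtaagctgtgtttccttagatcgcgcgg
Tek: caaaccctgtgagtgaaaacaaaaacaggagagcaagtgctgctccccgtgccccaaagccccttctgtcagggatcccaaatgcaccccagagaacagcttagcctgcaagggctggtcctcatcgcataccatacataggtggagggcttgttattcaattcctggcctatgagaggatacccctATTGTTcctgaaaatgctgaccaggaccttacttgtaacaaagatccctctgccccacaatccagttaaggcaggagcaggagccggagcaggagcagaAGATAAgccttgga
Both strands of each window were searched for short motifs. The motif searched for ETS factors, which regulate many endothelial genes, was CCGGAA. The motif used for SOX factors, which include regulators of vessel identity, was AACAAT. The one used for the GATA family of blood and vessel regulators was AGATAA, and the one used for the forkhead (FOX) family was GTAAACA. The TATA box of core promoters was searched as TATAAA, and no match overlapped another. The Kdr window held 1 ETS match, on the opposite strand, at position -153 from the gene start. The Tek window held a SOX match at -63 and a GATA match at 36, the Emcn window a SOX match at -50, and the windows of Cldn5 and Tie1 none of the 5 motifs. Of 32851 promoter windows of this length, 14.9% held the ETS motif, 10.7% the SOX, 11.2% the GATA, 3.6% the FOX and 13.6% the TATA motif. A match is a description of the letters, and its absence says only that they are not in this window.

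All values are log2 expression values as deposited. VSEL arrays 2 and 3 stood apart from every other pair of arrays of a group. Their correlation over probe sets was 0.989 with 1 probe set more than 4-fold apart, against correlations of 0.831 to 0.957 and 1565 to 4232 such probe sets in the other 8 pairs. They were therefore averaged and counted as 1 library, VSEL 2+3, so that VSEL had 2 libraries. As a scale for low values, 79 probe sets of odorant, vomeronasal and trace amine receptor genes were used. Their 95th percentile lay between 6.03 and 6.44 for VSEL arrays, between 5.59 and 5.75 for HSC arrays and between 5.62 and 5.69 for ESC arrays, and a value at or under it is said to lie within the receptor range. The sort marker Ptprc, which encodes CD45, read 3.59, 3.26 and 3.24 in VSEL, against 13.40, 13.68 and 13.54 in HSC, and Ly6a, which encodes Sca-1, was not analysed here. HSC is used as the name of the sort and not of a cell type, since all 10 T and NK cell markers lay above the receptor range on each HSC array, with medians between 10.45 and 11.47. Of 12 HSC markers, 6 to 8 did so on those arrays, with medians between 5.52 and 6.21. Precision is limited by how few arrays there were. In pooled cells, fewer cells of a type and less RNA per cell cannot be told apart.

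Cldn5 was high on 2 of the 9 arrays. It read 5.43, 11.32 and 11.39 on VSEL arrays 1, 2 and 3, against 4.99, 4.98 and 4.82 on the HSC arrays and 5.30, 4.89 and 4.996 on the ESC arrays. Only VSEL arrays 2 and 3, the nearly identical pair, lay above the receptor range, while VSEL array 1 lay only just above the highest ESC array. VSEL 1 was 5.93 below VSEL 2+3 on the log2 scale. As VSEL 1 lay within the receptor range, Cldn5 was at least 30.1-fold lower there, with the top of that range taken in place of lower values, as in each bound given here, a choice made after the values were seen. Over all probe sets, 0.464% were as far down. Over libraries Cldn5 averaged 8.39 ± 4.19 in VSEL (SD, n = 2) and 4.93 ± 0.10 in HSC (SD, n = 3), a difference of 3.46 with a standard error of 1.53. Its 95% interval ran between -0.23 and 7.15, and limma with Benjamini-Hochberg adjustment over all probe sets gave an adjusted p of 0.171. Against ESC, at 5.06 ± 0.21 (SD, n = 3), the difference was 3.33 (limma adjusted p = 0.187). One library decided these values. With VSEL 2+3 as the only VSEL library, Cldn5 was called higher than in HSC by 6.42 and than in ESC by 6.29 (limma adjusted p = 0.000212 and 0.000235), and with VSEL 1 as the only one the differences were 0.50 and 0.36. Over all alternatives tried, the adjusted p for Cldn5 ran between 0.000212 and 0.289 against HSC and between 0.000235 and 0.32 against ESC. A lone library is assumed to vary like the other groups in these fits.

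Pecam1 split the VSEL arrays the opposite way. It read 10.31, 5.32 and 5.90 on VSEL arrays 1, 2 and 3, against 7.72, 7.76 and 7.80 on the HSC arrays and 8.05, 7.72 and 6.60 on the ESC arrays. All HSC and ESC arrays lay above the receptor range, with VSEL array 1 the highest of the 9 and VSEL arrays 2 and 3 within that range and the lowest. VSEL 1 was 4.70 above VSEL 2+3 on the log2 scale, at least 17.3-fold higher with that bound for VSEL arrays 2 and 3, and 1.06% of all probe sets were as far up. The 2 VSEL libraries lay on either side of both other groups, so the mean difference of 0.20 against HSC had a 95% interval between -2.87 and 3.27 (limma adjusted p = 0.922), and that of 0.51 against ESC one between -2.56 and 3.58 (limma adjusted p = 0.816). With VSEL 1 as the only VSEL library, Pecam1 was called higher than in HSC by 2.55 and than in ESC by 2.85 (limma adjusted p = 0.0435 and 0.0343). With VSEL 2+3 as the only one, the differences were -2.15 and -1.84 (limma adjusted p = 0.0686 and 0.0927). Over all alternatives the adjusted p for Pecam1 ran between 0.0435 and 0.946 against HSC and between 0.0343 and 0.978 against ESC.

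**Figure D1:**
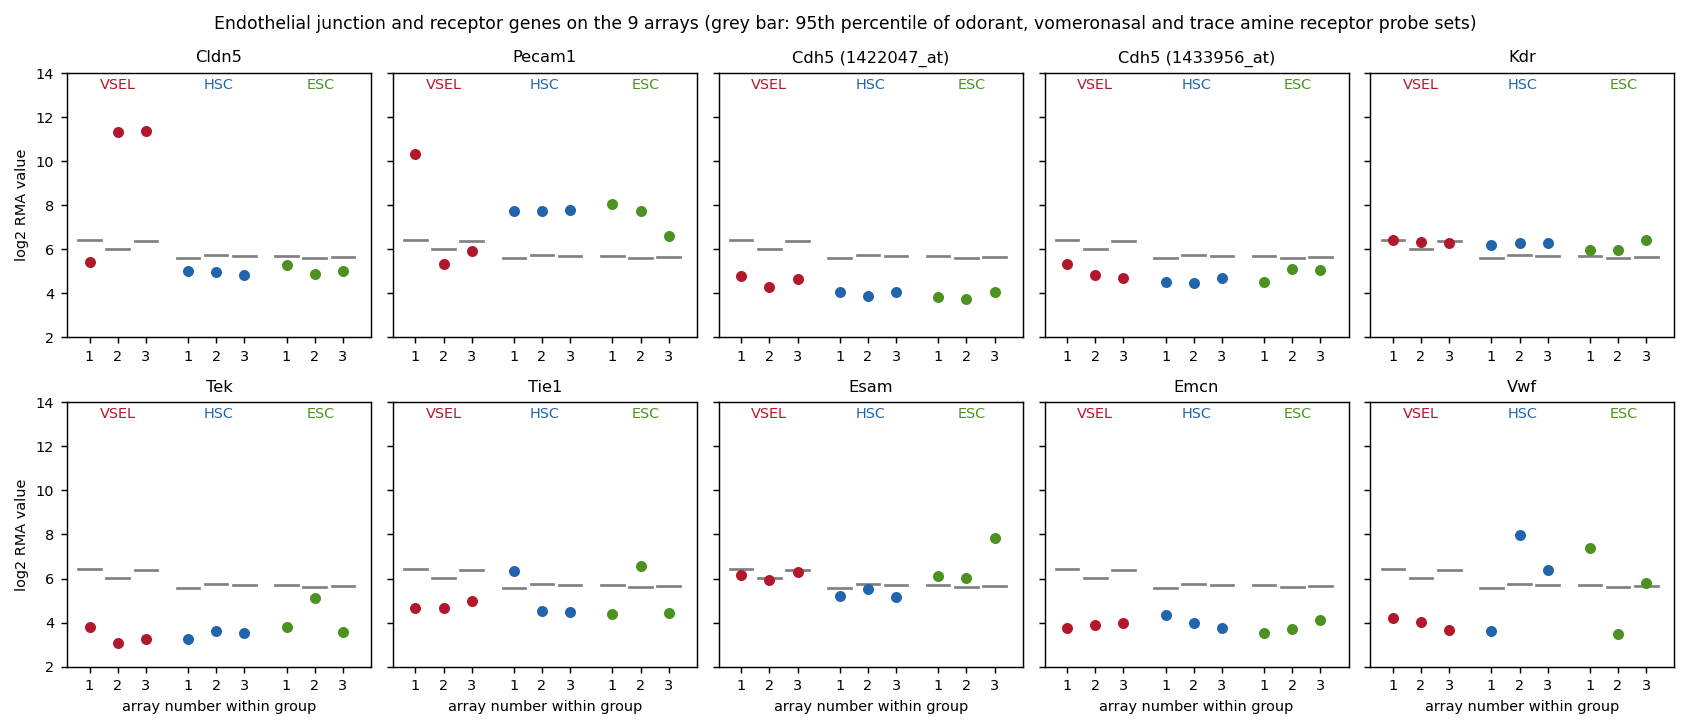
Log2 expression values of the 10 probe sets of the 9 genes on each array (vertical axis), by array number within each group (horizontal axis), with a grey bar at the 95th percentile of the odorant, vomeronasal and trace amine receptor probe sets of that array. Cldn5 stands out on VSEL arrays 2 and 3 at 11.32 and 11.39, Pecam1 is highest on VSEL array 1 at 10.31, and Cdh5, Tek and Emcn stay within the receptor range on all arrays.

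Cdh5, the cadherin that defines endothelial adherens junctions, lay within the receptor range on all 9 arrays with both of its probe sets. Probe set 1422047_at read 4.78, 4.30 and 4.67 in VSEL, against 4.06, 3.88 and 4.05 in HSC and 3.83, 3.75 and 4.06 in ESC, and the VSEL arrays did not overlap the others. It was 0.64 ± 0.15 (SE) higher in VSEL than in HSC, with a 95% interval between 0.27 and 1.01 (limma adjusted p = 0.0426), and 0.75 higher than in ESC (limma adjusted p = 0.0279). The 79 receptor probe sets moved the same way, with a median difference of 0.27 for VSEL minus HSC and 0.24 for VSEL minus ESC, and 12 of them were called higher in each. The alternatives gave adjusted p values between 0.00376 and 0.253 against HSC, where 6 of 17 kept the call, and between 0.0039 and 0.13 against ESC, where 10 of 17 did. Leaving out VSEL 1 or any 1 HSC or ESC array ended the first call, and leaving out VSEL 1 or ESC array 1 or 2 ended the second. Probe set 1433956_at read 5.32, 4.85 and 4.70 in VSEL, 4.54, 4.48 and 4.68 in HSC and 4.49, 5.13 and 5.07 in ESC, with differences of 0.48 against HSC and 0.15 against ESC (limma adjusted p = 0.23 and 0.715).

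Kdr, VEGF receptor 2, lay close to or above the top of the receptor range on every array. VSEL arrays gave 6.41, 6.34 and 6.30, HSC arrays 6.18, 6.30 and 6.27, and ESC arrays 5.96, 5.96 and 6.43, a total spread within 0.47. It lay above the receptor range on all HSC and ESC arrays and on VSEL array 2 alone among VSEL, where the range itself was higher. Its VSEL minus HSC difference of 0.12 and VSEL minus ESC difference of 0.25 had limma adjusted p values of 0.651 and 0.353.

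Tek, the angiopoietin receptor, lay within the receptor range throughout. It read 3.80, 3.05 and 3.23 in VSEL, 3.24, 3.60 and 3.54 in HSC and 3.78, 5.12 and 3.59 in ESC, with the highest value on ESC array 2. The VSEL minus ESC difference was -0.69 (limma adjusted p = 0.358), and its 95% interval ran between -1.86 and 0.47. Tie1 read 4.65, 4.67 and 4.97 in VSEL, 6.34, 4.54 and 4.47 in HSC and 4.40, 6.57 and 4.41 in ESC. It was above the receptor range on HSC array 1 and ESC array 2 alone, so that 1 array in each of those groups stood apart from the other 2. No difference passed (limma adjusted p = 0.775, 0.787 and 0.996 for VSEL minus HSC, VSEL minus ESC and HSC minus ESC).

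Esam lay above the receptor range in ESC alone. It read 6.16, 5.95 and 6.29 in VSEL, 5.22, 5.51 and 5.16 in HSC and 6.13, 6.01 and 7.85 in ESC. The HSC arrays did not overlap the VSEL or the ESC arrays. VSEL were 0.85 above HSC (limma adjusted p = 0.317) and HSC were 1.37 below ESC, with a 95% interval between -2.55 and -0.19 (limma adjusted p = 0.169), neither of which passed. Without ESC array 3 both passed, at 0.85 (limma adjusted p = 0.0326) and -0.77 (limma adjusted p = 0.0387), in ranges of 0.0326 to 0.569 and 0.0387 to 0.334 over the alternatives.

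Emcn and Vwf lay within the receptor range on all VSEL arrays. Emcn read 3.76, 3.87 and 3.98 in VSEL, 4.36, 4.00 and 3.76 in HSC and 3.53, 3.72 and 4.11 in ESC, all within the receptor range, and its VSEL minus HSC difference was -0.20 and its VSEL minus ESC difference 0.05 (limma adjusted p = 0.587 and 0.897). Vwf read 4.22, 4.03 and 3.67 in VSEL, 3.63, 7.97 and 6.40 in HSC and 7.38, 3.47 and 5.81 in ESC. It was above the receptor range on HSC arrays 2 and 3 and ESC arrays 1 and 3, and 1 array of each of those groups was as low as VSEL. The VSEL minus HSC difference for Vwf was -1.97 with a standard error of 1.52, and its interval ran between -5.64 and 1.70 (limma adjusted p = 0.397). The 16 measured platelet and megakaryocyte markers had array medians between 5.48 and 5.68 for VSEL, between 6.20 and 6.61 for HSC and between 4.85 and 5.16 for ESC, and their part in the Vwf values was not tested.

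Over the 10 probe sets, 1 was called between VSEL and HSC, where 14.2% of all probe sets were called, and 1 between VSEL and ESC, where 14.1% were. Both were Cdh5 probe set 1422047_at. Between HSC and ESC 0 of 10 were called by limma, against 10.6% of all probe sets, with 1 at an unadjusted p under 0.05, that of Esam. The members' shares lay close to these background shares. Read per gene from the probe set with the highest mean, which for Cdh5 was 1433956_at, 0 of 9 genes were called in each comparison by limma. Of all genes, 9.33% were called higher and 8.87% lower for VSEL minus HSC, 7.64% and 10.2% for VSEL minus ESC, and 6.32% and 8.87% for HSC minus ESC. Median differences over the 9 genes were 0.12, 0.05 and -0.01, against 0.22, 0.12 and -0.04 over all genes.

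**Figure D2:**
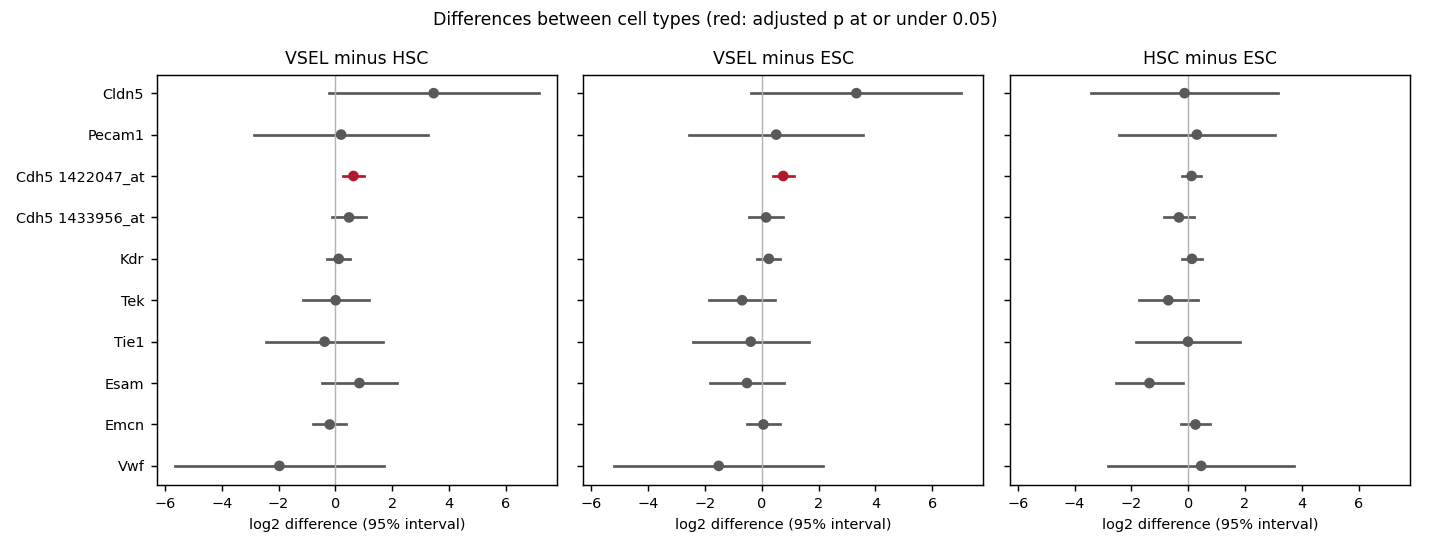
Log2 differences of the 10 probe sets with 95% intervals from limma, for VSEL minus HSC, VSEL minus ESC and HSC minus ESC. The intervals of Cldn5, Pecam1 and Vwf are several units wide and cross 0, and the red points of Cdh5 probe set 1422047_at, at 0.64 and 0.75, mark the calls.

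Between the VSEL libraries, 2 of the 10 probe sets lay past 4-fold, with Pecam1 higher and Cldn5 lower in VSEL 1. Over all probe sets 4.7% were that much higher and 4.53% lower. With 1 library on each side there is no test. The same 2 were past 4-fold when VSEL 1 was set against VSEL array 2 or array 3 alone. As those 2 arrays are nearly identical, this adds no independent check. In pairs of HSC or ESC libraries, chosen for comparison after the values were seen, 0 to 2 of the 10 were past 4-fold, and these were Vwf and Tie1. In those pairs 3.47% to 6.43% of all probe sets were past 4-fold, against 9.23% between the VSEL libraries. Some of the other endothelial surface and secreted genes were also past 4-fold, but with so few genes this is not read as a trait of that list. Of 32 measured, 4 were more than 4-fold higher in VSEL 1 and 3 lower, against 7.01% higher and 7.16% lower of all genes. The list's median difference was 0.03.

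The genes past that threshold were named after their values were seen. Cd93, a C-type lectin-like receptor, read 12.25 in VSEL 1 and 4.48 in VSEL 2+3, at least 66.2-fold higher in VSEL 1, and another of its probe sets was at least 2.91-fold higher, while 3 lay within the receptor range on all VSEL arrays. Thbd, thrombomodulin, read 10.73 in VSEL 1 and 5.10 in VSEL 2+3. Cd36, a fatty acid receptor, read 7.93 in VSEL 1 and 3.27 in VSEL 2+3, and Icam2, an adhesion ligand of leukocytes and endothelium, 9.53 in VSEL 1 and 5.28 in VSEL 2+3. The other 2 probe sets of Cd36 lay within the receptor range on all VSEL arrays. Lower in VSEL 1 were Cd34, a sialomucin of vessels and blood progenitors, at 4.53 in VSEL 1 and 10.58 in VSEL 2+3, the fatty acid carrier Fabp4 at 5.27 in VSEL 1 and 11.09 in VSEL 2+3, and the apelin receptor Aplnr at 6.31 in VSEL 1 and 9.66 in VSEL 2+3. The second Aplnr probe set and 1 other of the 4 for Fabp4 split the same way, while 2 for Fabp4 lay within the receptor range on all VSEL arrays.

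**Figure D3:**
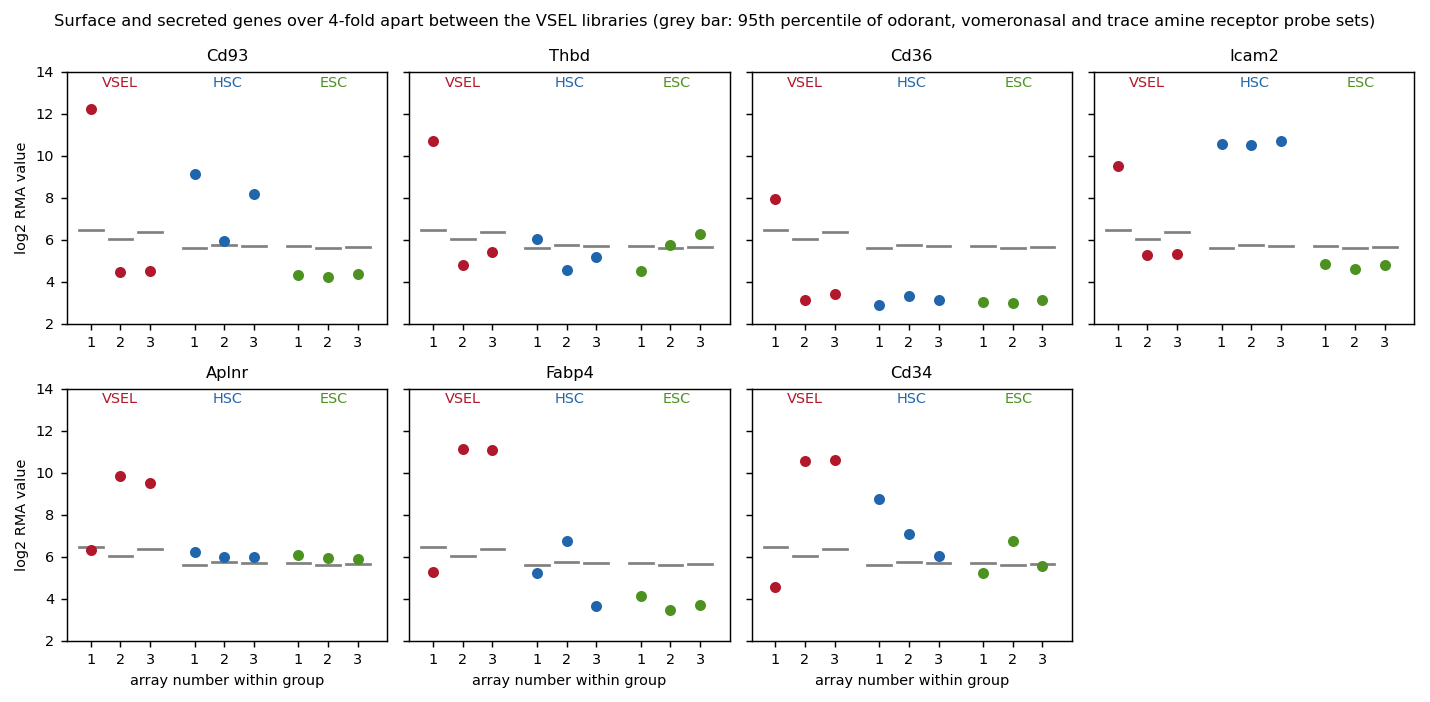
Log2 values on every array (vertical axis, by array number within each group) for the 7 other endothelial surface and secreted genes more than 4-fold apart between the VSEL libraries, with a grey bar at the top of the receptor range. VSEL array 1 is high for Cd93 at 12.25 and Thbd at 10.73, and low for Cd34 at 4.53 and Fabp4 at 5.27.

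**Figure D4:**
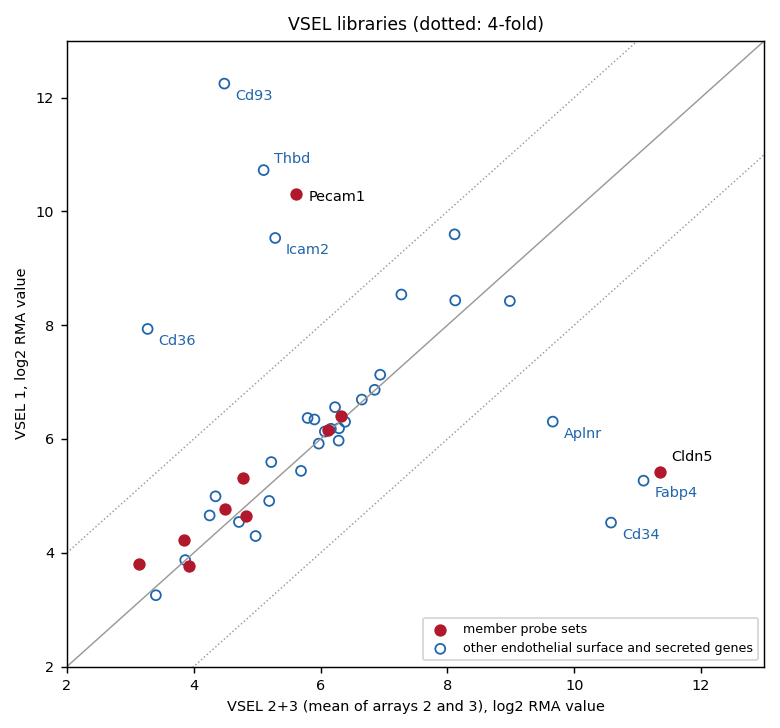
Log2 values of VSEL 2+3 on the horizontal and VSEL 1 on the vertical axis for the members and the other endothelial surface genes, with dotted lines at 4-fold. Cldn5 and Pecam1 lie outside the lines on opposite sides, at differences of -5.93 and 4.70, and the other 8 member probe sets lie between them.

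Some markers of leukocytes moved with the same split. Over 14 pan-leukocyte markers, 6 were more than 4-fold lower in VSEL 1 and 0 higher, against 7.16% and 7.01% of all genes. The list's median was 4.99 on VSEL array 1, 11.72 and 11.82 on VSEL arrays 2 and 3, between 13.08 and 13.43 for HSC and between 4.61 and 5.49 for ESC. On VSEL array 1, 5 of the 14 lay above the receptor range. Laptm5, Rac2, Arhgdib, Coro1a and Spi1 read 12.71, 12.99, 12.55, 11.46 and 9.77 there. Their ESC means were 8.06, 5.76, 6.54, 6.85 and 6.25. Laptm5 was lower in VSEL 2+3, at 11.95. Cd52 read 4.02 on VSEL array 1, against 13.31 and 13.43 on VSEL arrays 2 and 3, while Ptprc was low on all 3. Over 13 granulocyte and monocyte markers 5 were lower and 1 higher, with medians of 12.29, 14.34 and 14.41 on VSEL arrays 1, 2 and 3. The part of such cells in the Cldn5 and Pecam1 values was not tested.

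By Pearson correlation over the 8 libraries among 15593 probe sets with a range of at least 2, the nearest patterns to Pecam1 were Luc7l2 at 0.986, Eif1ad at 0.979 and Zfp692 at 0.975. For Cdh5 probe set 1433956_at they were Bbs10 at 0.969, Thg1l at 0.960 and Gpat3 at 0.947, and for Kdr Acaa2 at 0.887, Slk at 0.866 and Birc6 at 0.861. Those of Cldn5, added after its values were seen, were Itih3, 2810002D19Rik and Xpo7, each at 0.998. Cldn5 and these 3 genes were high in VSEL 2+3 alone, and any probe set with that trait would correlate closely. The points share 1 normalization and, within a group, 1 source of cells, and Kdr itself varied by 0.47 and that Cdh5 probe set by 0.84, so these are descriptions with no test.

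Of the 32 other endothelial surface and secreted genes, 3 were called higher and 2 lower in VSEL than in HSC, 2 and 2 in VSEL against ESC, and 3 and 5 in HSC against ESC, by limma. Over all genes, the shares called higher and lower were 9.33% and 8.87%, 7.64% and 10.2%, and 6.32% and 8.87% in these comparisons. The list's median differences were 0.55, 0.28 and -0.05. These counts depended on the scaling and on single libraries. Centring on the upper quartile gave 17 higher and 2 lower against HSC and 14 and 1 against ESC. Over all 45037 probe sets, that centring called 24437 higher against HSC and 22939 against ESC, so higher counts under it are common to most lists. Against HSC the list's higher count was 5 without VSEL 1 and 6 without VSEL 2+3, and the lower count 1 without HSC array 1 or 2 and 0 without HSC array 3 or any 1 ESC array. Against ESC the higher count was 7 without VSEL 2+3 and 0 without any 1 ESC array. The lower count against ESC was 3 without ESC array 2, 1 without VSEL 1, HSC array 1 or ESC array 1, and 0 without VSEL 2+3, HSC array 2 or 3 or ESC array 3. For HSC against ESC, leaving out 1 library gave 1 to 3 higher and 3 to 6 lower. Ramp2, a receptor activity modifying protein for adrenomedullin, was at 7.91 ± 0.89 in VSEL, 4.74 ± 0.21 in HSC and 10.21 ± 0.70 in ESC (SD over 2, 3 and 3 libraries), called in each comparison (limma adjusted p = 0.014, 0.0341 and 0.000621 for VSEL minus HSC, VSEL minus ESC and HSC minus ESC). Its VSEL minus ESC call was lost in 10 of 19 alternatives. S1pr1, a sphingosine-1-phosphate receptor, was 2.05 lower in VSEL than in HSC and 2.48 higher than in ESC (limma adjusted p = 0.0309 and 0.0184), and leaving out any 1 HSC or ESC array ended the first call, any 1 ESC array the second.

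Of 24 endothelial transcription factors, 3 rose and 4 fell in VSEL against HSC, and 5 rose and 1 fell against ESC. Of all genes, 9.33% were called higher and 8.87% lower against HSC, and 7.64% and 10.2% against ESC. The list's median differences were 0.13 and 0.05. The 3 became 11 with upper-quartile centring, 1 without either VSEL library or ESC array 1, and 0 with array weights and without HSC array 2 or 3 or ESC array 2 or 3. The 5 became 9 with that centring, 3 without either VSEL library or ESC array 2, and 2 without ESC array 1 or 3. Fli1, an ETS factor, fell by 5.22 in VSEL against HSC (limma adjusted p = 8.64e-05) on the probe set with the highest mean, while its second probe set ran the other way without a call. On the called probe set the VSEL arrays lay within the receptor range, so the size of the fall is uncertain. Lyl1, Tal1 and Lmo2, which act in both blood and endothelial development, were 6.04, 5.31 and 4.64 higher in VSEL than in ESC (limma adjusted p = 0.00474, 0.0277 and 0.00596). The Tal1 call was lost without either VSEL library or any 1 ESC array, and those of Lyl1 and Lmo2 held in every alternative. Tal1 on all ESC arrays and Lyl1 on ESC arrays 1 and 2 lay within the receptor range, so the sizes for these genes are uncertain. HSC were also called higher than ESC for Lyl1 by 3.00 and Lmo2 by 2.49 (limma adjusted p = 0.0267 and 0.0257), but not for Tal1 (limma adjusted p = 0.155). For Lyl1 that call was lost in 5 of 19 alternatives.

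Of 27 measured VEGF and angiopoietin ligands and signalling genes, 2 rose and 5 fell in VSEL against HSC. Against ESC, 3 rose and 5 fell. The shares over all genes were 9.33% higher and 8.87% lower against HSC, and 7.64% and 10.2% against ESC. The list's median differences were 0.26 and -0.10. Against HSC the higher count was 12 with upper-quartile centring, 1 without VSEL 2+3 or HSC array 2, and 0 with array weights and without VSEL 1 or HSC array 1. Against ESC it was 10 with that centring and 1 without HSC array 2 or any 1 ESC array, and the lower count was 3 without VSEL 2+3 or ESC array 1 or 2. Sh2d2a, an adaptor of T cells that also binds VEGF receptor 2, fell by 4.56 in VSEL against HSC (limma adjusted p = 0.000225). Dok2 fell by 3.99 (limma adjusted p = 0.0132). T and NK cell markers were high on the HSC arrays, and the part of such cells in these 2 falls was not tested.

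Of 28 measured junction scaffold and adhesion genes, 5 rose and 0 fell in VSEL against HSC, 0 rose and 11 fell in VSEL against ESC, and 0 rose and 12 fell in HSC against ESC. Their median differences were 0.55, -1.15 and -1.69. Over all genes, the shares called higher and lower were 9.33% and 8.87%, 7.64% and 10.2%, and 6.32% and 8.87% in the same order. Jam2, a junctional adhesion molecule, read 9.54, 9.54 and 9.34 in VSEL, 4.24, 4.67 and 4.55 in HSC and 12.14, 12.20 and 12.38 in ESC, with no overlap between the groups. The HSC arrays lay within the receptor range. Jam2 was 5.0 higher on the log2 scale in VSEL than in HSC, and 6.75-fold lower in VSEL than in ESC (limma adjusted p = 3.14e-05 and 0.000743). With the bound for the HSC arrays, which was not tested, Jam2 was at least 3.80 higher in VSEL than in HSC. All 5 of its probe sets were called higher than in HSC. Cdh1, epithelial cadherin, was 3.84 and Tjp1, the scaffold protein ZO-1, 3.22 higher in VSEL than in HSC (limma adjusted p = 0.0433 and 0.0209), calls lost in 9 of 19 and 4 of 18 alternatives, among them leaving out VSEL 1 or HSC array 1. Tjp1 on all HSC arrays and Cdh1 on HSC arrays 1 and 3 lay within the receptor range, so these sizes, given without the bound, may be too large. The VSEL against ESC count depended on the scaling, with 2 rising and 6 falling after quantile normalization, 0 and 4 after cyclic loess and 6 and 10 after centring on the upper quartile. It fell to 4 lower without either VSEL library, 5 without ESC array 1 or 2 and 7 without ESC array 3. The VSEL against HSC count was 14 higher after that centring and 2 with array weights. It was 2 without VSEL 1 or HSC array 1, and 3 without HSC array 3 or ESC array 1, with 1 lower in addition without HSC array 3. Of the pluripotency markers, 11 of 12 were called higher in VSEL than in HSC and 11 of 12 lower than in ESC, and their relation to the junction genes was not tested.

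Markers of other marrow cells also differed between VSEL and HSC. Of 10 erythroid markers 5 were called higher in VSEL and 0 lower, of 10 B lineage markers 4 and 0, of 17 mesenchymal and mural markers 7 and 0, and of 10 T and NK cell markers 0 and 9, by limma. Over all genes, the shares called in this comparison were 9.33% higher and 8.87% lower. Upper-quartile centring gave 10, 7, 15 and 0 higher in these marker lists and 0, 0, 0 and 8 lower. The erythroid count was 3 higher without VSEL 1, and the mesenchymal and mural count 2 without VSEL 1, 3 without VSEL 2+3 or HSC array 3 and 4 without HSC array 1. Of the 16 platelet and megakaryocyte markers 2 were higher and 3 lower. The 2 became 6 with that centring, 1 without VSEL 2+3 or HSC array 1 or 2, and 0 without VSEL 1, HSC array 3 or any 1 ESC array. Plek, of this list, fell by 5.80 in VSEL against HSC (limma adjusted p = 0.00113). Its VSEL arrays lay within the receptor range, so the size of the fall is uncertain. Among 12 HSC markers 1 was higher and 1 lower, with 6 and 1 after centring, and 0 to 2 higher and 0 to 2 lower without 1 library. The part of these cells in the values of the 9 genes was not tested.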

How the data were processed

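RNA was measured on Affymetrix mouse whole-genome expression arrays. The authors deposited log2 values for each probe set, and the submitters' processing notes name RMA and Partek 6.5. Which arrays entered the same RMA run, and its settings, is not stated in the labels. The upper quartile of the values was 6.63 to 6.69 on VSEL arrays, against 7.11 to 7.18 on the others. Of 45101 probe sets, 64 array controls were left out. The annotation gave 1 gene to 34945, several to 932 and none to 9160. Of those with 1 gene, 34741 had it listed in RefSeq GRCm38.p6 and took their symbol from there, changed or not. Values were used as deposited, and VSEL arrays 2 and 3 were averaged. One limma 3.58.1 fit in R 4.3.3 covered 8 libraries with 5 residual degrees of freedom, two-sided, with Benjamini-Hochberg adjustment over all 45037 probe sets and calls at 0.05. It assumes 1 spread for all groups, and since the VSEL libraries disagree, standard errors may be too small for VSEL. Lists were read per gene from the probe set with the highest mean, and up to 4 called genes per list and comparison with the largest difference could be named. The main fit treated the samples as unpaired. Deviations of same-numbered arrays correlated between -0.092 and 0.16. With 20 cells per library and 2 nearly identical VSEL arrays, this cannot tell whether same-numbered libraries shared a source or batch. The alternatives covered normalization, filters, weights, the replicate block and left-out libraries. The members and lists were chosen with earlier results of these data known.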

Additional observations from a re-analysis of the deposited data

How the results depend on the processing

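Values are log2 differences unless named as counts. The count of member probe sets called was 1 for VSEL against HSC and 1 for VSEL against ESC. It was 0 in both when genes were read from 1 probe set and when only probe sets above the median were tested. In those settings the called probe set, 1422047_at, was itself not tested. The count also fell to 0 in both after quantile normalization, after cyclic loess, with the 2 groups compared alone and with array weights. It was 3 and 2 with arrays centred on their upper quartile, where 27287 and 26072 of all 45037 probe sets were called. Leaving out 1 library gave counts of 0 to 2 for VSEL against HSC and for VSEL against ESC, and of 0 to 1 for HSC against ESC.

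Over all 45037 probe sets, calls for VSEL against HSC numbered 6389. Per gene, 3129 of 18193 were called. Over all probe sets calls numbered 3932 after cyclic loess, 27287 with upper-quartile centring and 2435 with the groups alone. They numbered 2702 with array weights and 3524 to 5631 without 1 library. Counts per gene come from fewer tests, so they do not by themselves show a lower share of calls. Calls for VSEL against ESC numbered 6334, against 3075 of 18193 per gene. They numbered 3741 after loess, 26072 with centring, 3332 with weights and 2734 to 5973 without 1 library. Calls for HSC against ESC numbered 4788, against 3078 of 18193 per gene and 2968 of 36082 without probe sets that can match several transcripts. The share of calls that were higher was 56.4% for VSEL against HSC and 50.7% for VSEL against ESC, but 89.6% and 88.0% with centring and 63.7% and 60.8% after quantile normalization. The balance turned to lower calls in others, with shares of 46.6% and 37.8% per gene, 37.6% and 29.0% with probe sets above the median, 31.3% and 34.7% with the groups alone and 38.9% and 41.0% with array weights. Without 1 library the shares ran between 39.0% and 53.0% for VSEL against HSC, lowest without HSC array 3, and between 31.3% and 52.6% for VSEL against ESC, lowest without ESC array 2.

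Some differences that were not called changed sign. For VSEL minus HSC, Pecam1 was -0.58 and Tek -0.10 with 9 arrays kept separate, and the same, -0.58 and -0.10, with the replicate block added, which changed no member's call from that fit. Tek was also -0.17 after quantile normalization, -0.21 after loess and -0.022 with weights, Kdr was -0.012 after loess, and Tie1 was 0.10 and Emcn 0.28 with centring. For VSEL minus ESC, Pecam1 was -0.28 with 9 arrays kept separate and -0.28 with the block, Emcn -0.15 after quantile normalization and -0.19 after loess, Cdh5 probe set 1433956_at -0.17 after loess, and Tie1 0.091 with centring. For HSC minus ESC, Tie1 was 0.005 after quantile normalization and 0.019 after loess.

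Without 1 library, VSEL minus HSC ran between -2.15 and 2.55 for Pecam1, -0.32 and 0.34 for Tek and -0.70 and 0.23 for Tie1. VSEL minus ESC ran between -1.84 and 2.85 for Pecam1, -0.12 and 0.43 for Cdh5 probe set 1433956_at, -0.76 and 0.33 for Tie1, -0.85 and 0.071 for Esam and -0.074 and 0.21 for Emcn. HSC minus ESC ran between -0.13 and 0.60 for Pecam1, -0.62 and 0.71 for Tie1 and -0.59 and 1.64 for Vwf. The difference between VSEL 1 and VSEL 2+3 kept its direction in every alternative, at -5.96 to -5.88 for Cldn5 and 4.41 to 4.99 for Pecam1. These alternatives reuse the same 3 VSEL arrays, 2 of them nearly identical, so they do not show how further libraries would vary. The cause of the changes between alternatives was not tested. Signal near the receptor range limits what can be read for Cdh5, Tek and Emcn.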
